A study of Mus musculus with 6 samples.

Results

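The thioredoxin system of B16 cells, a mouse melanoma line, was followed through 2 regimes of low oxygen on 6 Affymetrix arrays. Its 10 genes were chosen by name, with earlier results of these data known. They were the inhibitor Txnip, the thioredoxins Txn1 and Txn2, the reductases Txnrd1 and Txnrd2, the sulfiredoxin Srxn1, and the peroxiredoxins Prdx2, Prdx3, Prdx5 and Prdx6. Of these, 8 were measured, by 19 probe sets (groups of probes to 1 transcript), among 7739 genes represented on the arrays. All 19 probe sets passed the filter on low signals. No probe set of the annotation used here named Prdx5 or Prdx6, so both are named only.

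All groups were unmodified B16 cultures as far as the labels say (they name no genetic change), moved to serum-free medium 2 h before the exposure. The chronic regime was 3 h of hypoxia at less than 1% oxygen. The cyclic regime was 3 periods of 1 h of hypoxia with 30 min of reoxygenation in between, and normoxia, for 3 h, served as the control. Cells of every regime were taken when the exposure ended and again 1 h later, and that hour was reoxygenation for the hypoxic cells and further normoxia for the controls. There was 1 array per group, so no difference between 2 arrays has an error of its own, and no label says whether the normoxia cells were timed to the longer cyclic protocol.

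Thioredoxins are small proteins that reduce disulfides in other proteins, and thioredoxin reductases recharge them with electrons from NADPH. Peroxiredoxins use thioredoxin to break down hydrogen peroxide, and sulfiredoxin repairs peroxiredoxins that peroxide has over-oxidised. Txnip binds reduced thioredoxin and blocks it, and as an alpha-arrestin it also lowers glucose uptake. Its gene is known for its response to glucose through the transcription factors MondoA and ChREBP, while Txnrd1 and Srxn1 are known targets of NRF2, the transcription factor of the response to oxidants.

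RefSeq sequences of 250 bases before the start (GRCm38.p6) were at hand for 9 of the 10 genes, 11 promoters in all, and not for Prdx6. The promoter of Txnip (chr3:96557707-96557956, plus strand) and that of Srxn1 (chr2:152105274-152105523, plus strand) are printed because each holds a motif that is uncommon among promoters. Capitals mark the motif in each.
Txnip: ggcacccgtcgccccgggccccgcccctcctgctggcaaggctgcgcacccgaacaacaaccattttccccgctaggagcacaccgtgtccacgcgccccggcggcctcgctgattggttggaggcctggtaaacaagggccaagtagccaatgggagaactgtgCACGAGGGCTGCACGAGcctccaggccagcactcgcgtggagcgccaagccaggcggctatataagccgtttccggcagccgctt
Srxn1: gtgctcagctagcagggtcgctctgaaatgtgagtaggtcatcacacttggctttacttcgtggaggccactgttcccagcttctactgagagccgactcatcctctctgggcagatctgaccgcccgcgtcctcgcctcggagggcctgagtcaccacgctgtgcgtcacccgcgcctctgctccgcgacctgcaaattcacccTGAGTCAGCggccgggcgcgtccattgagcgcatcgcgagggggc
In Txnip the capitals match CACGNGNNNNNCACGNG, the E-box pair of a carbohydrate response element, which begins at position -85 relative to the start. The motif stood in 15 of 32851 mouse promoters of that length, 0.0457%, counting both strands. In Srxn1 they match TGANTCAGC, taken here as a form of the core of an antioxidant response element, at position -45 and found in 335 promoters (1.02%). The letters of these 2 motifs were set with these promoters in view, so the matches are descriptions and no test. None of the 3 promoters of Txnrd1 held either motif as spelled here, and other spellings of the antioxidant response element were not searched. The hypoxia response core ACGTG (in 16.6% of promoters) was found in none of the promoters of Txnip, Srxn1 and Txnrd1. It stood once in that of Txnrd2. Its form GCGTG (in 28.2%) occurred in those of Txnip, Srxn1, Txnrd1, Txn1, Prdx2, Prdx3 and Prdx5. An E-box can itself hold ACGTG, which that pair in Txnip does not, and a missing match says only that these letters are not in the window.

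The values are signals in intensity units on a linear scale, scaled by the authors so that each array has a trimmed mean of 100 (leaving out 2% of values at each end). Array medians lay between 15.9 and 19.3 units. The array after cyclic hypoxia and reoxygenation stood apart, with a mean correlation of 0.940 with the other arrays across genes, against 0.962 to 0.966 for the rest. Its median signal was also the lowest. The 3'/5' signal ratios of actin and Gapdh were 1.17 and 0.845 there, against ranges of 1.20 to 1.25 and 0.799 to 0.900 on the other arrays. The melanocyte markers Tyr, Tyrp1, Dct, Pmel, Mitf and Sox10 (6 of 7 listed) summed to 17658 to 23299 units per array. Of these 6, Mitf alone was 2-fold apart from normoxia, at 635 units in cyclic hypoxia with reoxygenation against 2568, and its part in the results below was not tested. The 4 fibroblast markers summed to 11.3 to 21.1, 3 of 4 immune markers to 30.6 to 48.9, the 3 endothelial markers to 2.43 to 12.5 and the 3 keratinocyte markers to 11.6 to 19.96. The 2 hypoxia checks were higher than in normoxia after both regimes: Hk2, the first enzyme of glycolysis, had log2 differences of 2.95 (chronic) and 1.69 (cyclic) at the end, and Bnip3, a mitophagy receptor, 2.66 and 1.38. Of the further hypoxia genes listed, Slc2a1 had 2.38 and 1.34, and Ndrg1 0.94 and 0.99. Ndrg1 was 2-fold apart only in cyclic hypoxia with reoxygenation (1.40, against 0.68 in the chronic regime). As RNA was taken in bulk and arrays were scaled, fewer cells with a transcript and less of it per cell cannot be told apart.

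Over the whole system, Txnip was low on both arrays taken after reoxygenation, Srxn1 and Txnrd1 were high on both cyclic arrays, and the brightest probe sets of the remaining 5 genes spanned at most 1.64-fold over the 6 arrays. Each gene is given by its probe set of highest mean signal, and all 8 had means of at least 100 units. Further probe sets serve as a check. A gene is counted as apart when 2 arrays differ at least 2-fold (1 on the log2 scale), which is a description without a test. Chronic and cyclic hypoxia are set against the same normoxia array at each collection, so their differences are given side by side and not as separate evidence.

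**Figure D1:**
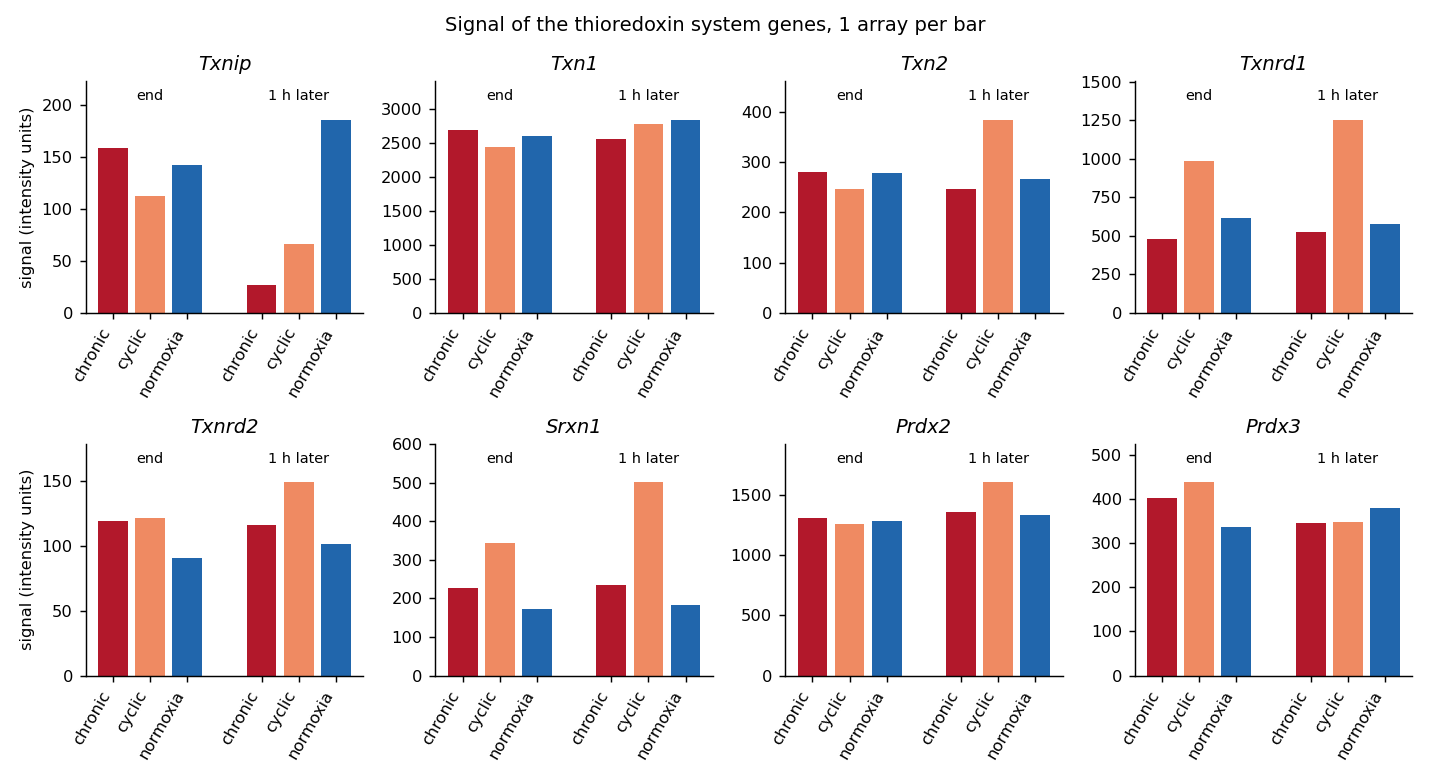
Signal (intensity units, linear axis starting at 0) of the 8 measured genes, 1 bar per array: chronic hypoxia, cyclic hypoxia and normoxia at the end of the exposure (left) and 1 h later (right). Txnip is low in both hypoxia bars 1 h later, at 27.2 and 66.1 units, and Txnrd1 and Srxn1 have their highest bars in cyclic hypoxia at both collections.

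Txnip, the inhibitor, was measured by 2 probe sets. At the end of the exposure the brighter one (1415996_at) read 158 units after chronic hypoxia and 113 after cyclic hypoxia, against 142 in normoxia. One hour later it read 27.2 units after chronic hypoxia with reoxygenation and 66.1 after cyclic hypoxia with reoxygenation, against 186 in normoxia. The 2 reoxygenated arrays were thus the lowest of all 6, and the other 4 lay between 113 and 186 units. After reoxygenation, Txnip stood 6.83-fold below normoxia in the chronic regime (log2 difference -2.77) and 2.81-fold below it in the cyclic regime (-1.49). At the end of hypoxia these log2 differences were 0.16 and -0.33.

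The dimmer probe set (1415997_at) had the same order after reoxygenation. It read 27.3 units after chronic and 33.9 after cyclic hypoxia, against 32.4 in normoxia, at the end. One hour later it read 0.927 after chronic hypoxia, under the floor of 2.10 units that was set on all values, and 14.8 after cyclic hypoxia, against 46.2 in normoxia. Measured against the floor, that is at least 22.0-fold lower after chronic hypoxia with reoxygenation, and 3.13-fold lower after cyclic hypoxia with reoxygenation. Both probe sets therefore put the reoxygenated cells below normoxia, and the chronic regime below the cyclic one.

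Within each regime the last hour went different ways for Txnip. Cells with 1 h of reoxygenation had log2 differences of -2.54 (chronic) and -0.77 (cyclic) from cells taken at the end, while the normoxia cells differed by 0.39 over the same hour. The normoxia value is itself above the SD of 0.21 that 3572 bright genes (mean signal 100 units or more) showed between the normoxia arrays. Txnip was itself close to the limit for a bright gene, with a mean of 115 units and both reoxygenated arrays under 100. Among the 3572 bright genes, Txnip ranked lowest in chronic hypoxia with reoxygenation against normoxia, and it was 4th from the bottom of all 7739 genes. Only 1 other bright gene, the heat shock chaperone Hspa1b (35.8 against 126 units, log2 difference -1.81), was also at least 2-fold lower there. In cyclic hypoxia with reoxygenation Txnip was 113th from the bottom of the same genes and 358th of all genes, on the array that stood apart, where 7.61% of them were at least 2-fold lower.

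The limma fits, which had 2 residual degrees of freedom and adjusted p over 13556 probe sets, did not call Txnip. With both regimes standing in for replicates, the fitted hypoxia effect on Txnip was -2.13 (log2, SE 0.555, adjusted p = 0.9998) 1 h later and -0.09 at the end of exposure. The difference between these 2 effects was -2.04 (SE 0.784, 95% interval -3.92 to -0.17, adjusted p = 0.9998), lower in both regimes. Both values passed when either reoxygenated array was left out. Without the chronic one, the effect 1 h later was -1.49 (adjusted p = 3.62e-04) and the difference -1.40 (0.0451). Without the cyclic one they were -2.77 (1.64e-10) and -2.69 (8.09e-05). Those fits also called many other probe sets: without the chronic array, 191 of 13556 higher and 1065 lower for hypoxia 1 h later and 121 and 416 for the difference, and without the cyclic array 69 and 7, and 47 and 13. Their spread was taken mostly from all probe sets together (median total degrees of freedom of 13556 and 300.4). In those fits the lone hypoxia array at that collection is assumed to vary as the others do, and over all 10 alternatives adjusted p for the effect 1 h later lay between 1.64e-10 and 0.9999. With the 2 collections standing in for replicates instead, the chronic regime gave -1.31 (95% interval -2.61 to -0.00, adjusted p = 0.935) and the cyclic regime -0.91 (-2.21 to 0.39, adjusted p = 0.491). These averages depended on single arrays: the chronic value was -0.13 without the array after chronic hypoxia with reoxygenation and -2.48 without that after chronic hypoxia.

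**Figure D2:**
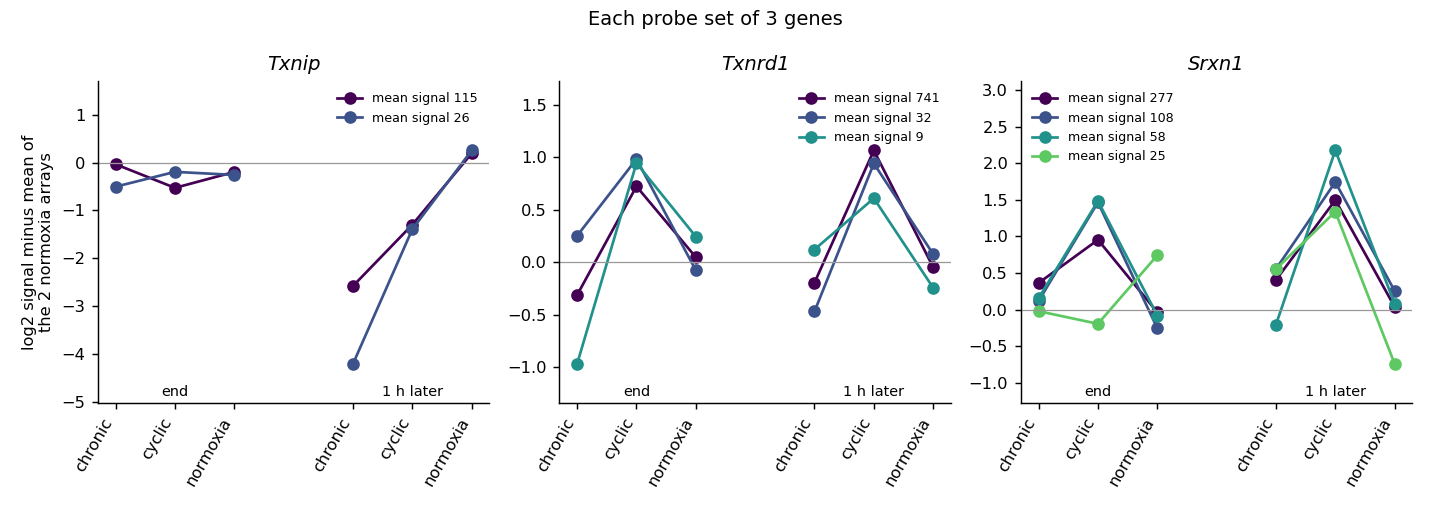
Log2 signal of every probe set of Txnip, Txnrd1 and Srxn1 minus its mean over the 2 normoxia arrays, 1 point per array, lines joining the arrays of 1 collection. Both Txnip probe sets lie below 0 in the reoxygenated arrays (the dimmer one drawn at the floor of 2.10 units after chronic hypoxia), all 3 Txnrd1 probe sets are highest in cyclic hypoxia, and the dimmest Srxn1 probe set departs from the other 3 at the end.

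The 2 reductases differed from each other. Txnrd1 is the cytosolic reductase, a selenoprotein. At the end of the exposure it (1421529_a_at) read 482 units after chronic hypoxia and 989 after cyclic hypoxia, against 619 in normoxia. One hour later it read 523 after chronic hypoxia with reoxygenation and 1255 after cyclic hypoxia with reoxygenation, against 579 in normoxia. Both cyclic arrays lay above, and both chronic arrays below, the 2 normoxia arrays. The log2 differences from normoxia were 0.68 and 1.12 for the cyclic regime, at the end and 1 h later, and -0.36 and -0.15 for the chronic regime. The fitted chronic effect, -0.25, did not pass (95% interval -0.64 to 0.14, adjusted p = 1.00). Between the normoxia arrays Txnrd1 differed by -0.10.

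Set directly against each other, the cyclic arrays were 2.05-fold (end) and 2.40-fold (1 h later) above the chronic arrays for Txnrd1. Among the 3572 bright genes these differences ranked 4th and 5th from the top, and among all 7739 genes, many of them dim, 89th and 93rd. This contrast uses no normoxia array. The adjusted p of Txnrd1 equalled the smallest of that contrast over all 13556 probe sets. Its fitted difference was 1.15 (log2, SE 0.169, 95% interval 0.76 to 1.54, adjusted p = 0.127), with the cyclic array higher at 2 of 2 collections. This missed the threshold of 0.05. Over 12 alternatives the difference lay between 0.98 and 1.33, and 4 of them passed. Median centring passed in a fit that called 22 of 13556 probe sets higher and 108 lower, against 0 in the main fit. The other passes came with 1 array left out, among them either normoxia array, which leaves 1 regime (hypoxic or normoxia) with a single array. Those fits also called further probe sets. Without the array after cyclic hypoxia and reoxygenation, which stood apart, the difference was 0.98 (adjusted p = 0.165).

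The dimmer probe sets of Txnrd1 also had their highest values on the cyclic arrays, but did not keep chronic hypoxia below normoxia at both collections. The second one (1424486_a_at) read 29.3 units after chronic and 48.6 after cyclic hypoxia, against 23.3 in normoxia, at the end, and 17.7 and 47.2 units, against 25.9, 1 h later, so that chronic hypoxia stood above normoxia at the end (0.33) and below it later (-0.55). The third (1424487_x_at), at 3.73 to 14.1 units, is close to the background, and its cyclic arrays were also its 2 highest, while chronic hypoxia differed from normoxia by -1.21 at the end and 0.37 later. In the fit, cyclic hypoxia against normoxia gave 0.90 for the brightest probe set (95% interval 0.51 to 1.29, adjusted p = 0.120) and 0.96 for the second (adjusted p = 0.233). Without the array after cyclic hypoxia and reoxygenation the brightest gave 0.73, and without that after cyclic hypoxia 1.06.

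Txnrd2, the mitochondrial reductase, read 119 units after chronic and 121 after cyclic hypoxia, against 90.5 in normoxia, at the end, and 116 and 149 units, against 101.0, 1 h later. All 4 hypoxic arrays were above their normoxia array, by 0.20 to 0.56 on the log2 scale, and the normoxia arrays differed by 0.16. The fitted cyclic effect was 0.49 (95% interval -0.02 to 0.99, adjusted p = 0.348), and cyclic minus chronic hypoxia was 0.20 (-0.31 to 0.70). Its second probe set, at 13.8 to 26.3 units, gave -0.00 for the chronic and 0.45 for the cyclic effect.

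Srxn1, the sulfiredoxin, was measured by 4 probe sets. The brightest (1426875_s_at) read 228 units after chronic hypoxia and 344 after cyclic hypoxia, against 173 in normoxia, at the end. One hour later it read 235 after chronic hypoxia with reoxygenation and 501 after cyclic hypoxia with reoxygenation, against 182 in normoxia. All 4 hypoxic arrays exceeded both normoxia arrays, and both cyclic arrays exceeded both chronic ones. The log2 differences from normoxia were 0.99 and 1.46 for the cyclic regime, at the end and 1 h later, and 0.40 and 0.37 for the chronic regime, while the normoxia arrays differed by 0.07. In cyclic hypoxia with reoxygenation Srxn1 stood 2.75-fold above normoxia, 11th from the top of the bright genes and 97th of all genes, and at the end 1.99-fold above, 39th and 171st.

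The second probe set of Srxn1 (1451680_at) read 65.6 units after chronic and 167 after cyclic hypoxia, against 50.7 in normoxia, at the end, and 88.8 and 202 units, against 72.1, 1 h later. The third (1425351_at) read 34.4 and 86.4 units, against 29.2, and then 26.8 and 139.6, against 32.7. For both of them, cyclic hypoxia stood further above normoxia at the end (log2 differences of 1.72 and 1.57) than at the brightest probe set. The fourth (1419942_at), at 10.998 to 46.5 units, went against them at the end, with -0.94 in cyclic hypoxia, but stood at 2.08 in cyclic hypoxia with reoxygenation, and its normoxia arrays differed by -1.48.

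In the fit, cyclic hypoxia against normoxia gave 1.22 for the brightest probe set of Srxn1 (95% interval 0.74 to 1.71, adjusted p = 0.109), 1.60 for the second (adjusted p = 0.0866) and 1.83 for the third (adjusted p = 0.109), higher at 2 of 2 collections each. The fourth gave 0.57 (-0.88 to 2.03, adjusted p = 0.714), higher at 1 of 2. None of these passed, and neither did chronic hypoxia, at 0.38 (-0.10 to 0.87, adjusted p = 1.00). Cyclic minus chronic hypoxia was 0.84 (0.35 to 1.33, adjusted p = 0.208). For the brightest probe set the cyclic effect was 0.98 without the array after cyclic hypoxia and reoxygenation, and 1.47 without that after cyclic hypoxia. Over all 12 alternatives the cyclic effect lay between 0.98 and 1.47, and 2 passed. These were median centring and the fit without the array after cyclic hypoxia, which leaves 1 cyclic array. For cyclic hypoxia, median centring called 118 of all 13556 probe sets higher and 200 lower.

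**Figure D3:**
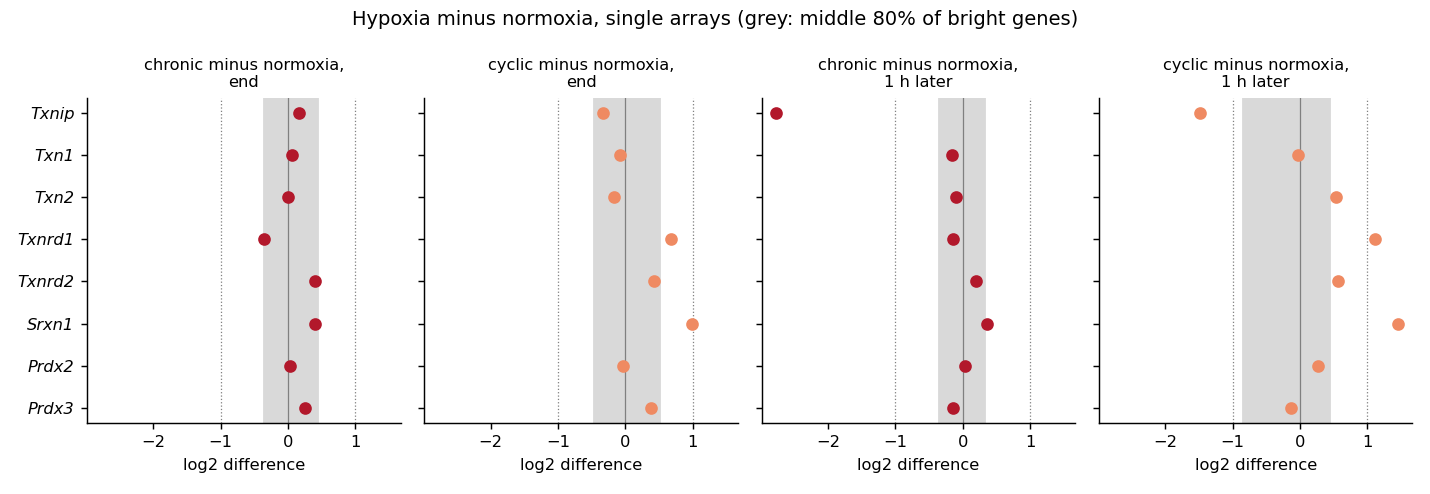
Log2 difference of a hypoxia array from the normoxia array of the same collection for the 8 genes, 1 panel per contrast of 2 single arrays, with dotted lines at a 2-fold difference and a grey band for the middle 80% of 3572 bright genes. Txnip lies far left of the band in both panels 1 h later, and Srxn1 and Txnrd1 lie right of it in both cyclic panels. Txn2 and Txnrd2 also lie right of it in the cyclic panel 1 h later, at 0.53 and 0.56. In the chronic panels Srxn1 lies just right of it 1 h later (0.37), and Txnrd1 just left of it at the end (-0.36).

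Of the thioredoxins, Txn1, the cytosolic form, read 2692 units after chronic and 2444 after cyclic hypoxia, against 2593 in normoxia, at the end, and 2554 and 2778 units, against 2839, 1 h later. Its highest array was 1.16-fold above its lowest, and the hypoxic arrays lay on both sides of normoxia. The fitted effects were -0.05 for the chronic (95% interval -0.31 to 0.22) and -0.06 for the cyclic regime (-0.32 to 0.21), so that changes of more than 0.32 in size lie outside both intervals. A dim second probe set, at 9.69 to 25.2 units, was lower in all 4 hypoxic arrays than in their normoxia array, with a fitted chronic effect of -0.71 (adjusted p = 1.00) and a cyclic effect of -0.51 (0.618).

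Txn2, the mitochondrial form, read 280.3 units after chronic and 247 after cyclic hypoxia, against 279 in normoxia, at the end, and 248 and 385 units, against 266, 1 h later. The high value is that of cyclic hypoxia with reoxygenation, the array that stood apart, 0.53 above normoxia on the log2 scale, and the other 5 arrays lay between 247 and 280.3 units. Its other probe sets differed less on that array, reading 259 and 248 units against 223 and 229 in normoxia. They were lowest after chronic hypoxia with reoxygenation, at 171 and 169 units (log2 differences of -0.38 and -0.44 from normoxia). All 3 probe sets put cyclic above chronic hypoxia 1 h later, by 0.64, 0.60 and 0.55, while at the end the same differences were -0.18, 0.32 and -0.09. The fitted cyclic minus chronic difference was 0.23 for the brightest (95% interval -0.33 to 0.78) and 0.46 for the second (-0.00 to 0.92, adjusted p = 0.351).

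Of the peroxiredoxins, Prdx2 is cytosolic and Prdx3 mitochondrial. Prdx2 read 1309 units after chronic and 1262 after cyclic hypoxia, against 1288 in normoxia, at the end, and 1360.3 and 1606 units, against 1333, 1 h later. Only the array after cyclic hypoxia and reoxygenation left the range of 1262 to 1360.3 units, by a log2 difference of 0.27 from normoxia, and the second probe set gave 0.40 there. The fitted cyclic effect on Prdx2 was 0.12 (95% interval -0.20 to 0.44).

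Prdx3 read 401 units after chronic and 438 after cyclic hypoxia, against 337 in normoxia, at the end, and 345 and 348 units, against 380.5, 1 h later. Both hypoxic arrays were thus above normoxia at the end, with log2 differences of 0.25 and 0.38, and below it 1 h later, with -0.14 and -0.13. The difference between the collections, -0.45, did not pass in the fit (95% interval -1.30 to 0.40, adjusted p = 0.9998), and the normoxia arrays alone differed by 0.18.

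Counted over the system, 0 of 8 genes were 2-fold apart from normoxia at the end of chronic hypoxia, against 2.52% of all 7739 genes higher and 2.36% lower. Likewise 0 of 8 were apart at the end of cyclic hypoxia, against 2.12% of all genes higher and 5.41% lower. In chronic hypoxia with reoxygenation 1 of 8 was lower (Txnip) and 0 higher, against 1.12% of all genes lower and 2.98% higher, and 0.056% of the bright genes lower. In cyclic hypoxia with reoxygenation 2 were higher (Srxn1 and Txnrd1) and 1 lower (Txnip), against 3.57% and 10.6% of all genes and 0.98% and 7.61% of the bright ones. Between cyclic and chronic hypoxia 1 gene was higher at the end (Txnrd1, against 1.23% of all and 0.14% of bright genes) and 3 were higher 1 h later (Srxn1, Txnip and Txnrd1, against 2.51% and 0.504%). Within the last hour 0 of 8 were apart in normoxia (2.74% of all genes), 1 was lower in the chronic regime (Txnip, 1.45%), and 0 were apart in the cyclic regime (10.4%). With the second brightest probe set of each gene, Srxn1 and Txnrd1 also passed 2-fold at the end of cyclic hypoxia, and Txnip in the last hour of the cyclic regime. With that probe set Txnrd1 was under 2-fold in cyclic hypoxia with reoxygenation against normoxia (0.87) and in cyclic against chronic hypoxia at the end (0.73).

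Median log2 differences of the 8 genes from normoxia were 0.11 (chronic) and 0.17 (cyclic) at the end, and -0.12 and 0.40 for the reoxygenated arrays. Over all genes these 4 medians lay between -0.03 and 0.00. The median of cyclic against chronic hypoxia was -0.01 at the end and 0.50 1 h later, over all genes -0.04 and -0.00. Limma made 0 calls among the 8 genes in each of 8 contrasts. At an unadjusted p under 0.05 there was 1 gene for mean hypoxia (Srxn1), 1 for chronic hypoxia (Txnip), 2 each for cyclic hypoxia and for cyclic minus chronic hypoxia (Srxn1 and Txnrd1), 1 each for hypoxia 1 h later and for its difference from the end (Txnip), and 0 for the last hour and for the end. Across all 13556 probe sets limma called 0.0148% higher in mean hypoxia and 0.0959% higher in chronic hypoxia, 0 lower in either, and 0 in the other 6 contrasts. These p-values measure only the spread between these arrays, in which collections or regimes take the place of replicates.

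**Figure D4:**
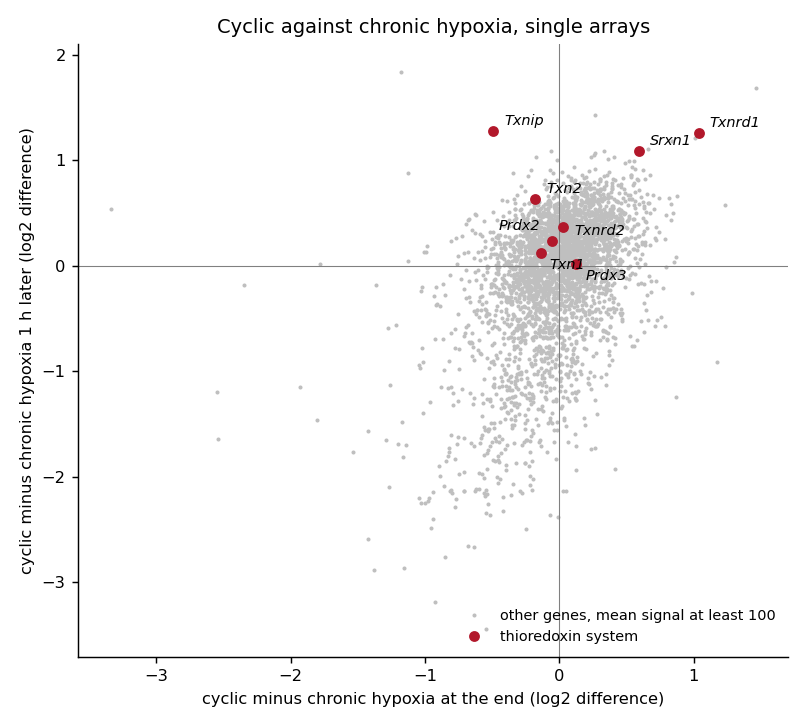
Log2 difference of cyclic minus chronic hypoxia at the end of exposure (horizontal) and 1 h later (vertical) for the bright genes, grey (mean signal 100 units or more), and the 8 genes of the thioredoxin system, red. Txnrd1 lies at 1.04 and 1.26 and Srxn1 at 0.59 and 1.09, to the upper right, while Txnip, at -0.49 and 1.28, is above 0 only 1 h later.

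The patterns of Txnip and Txnrd1 over the 6 arrays were unlike. Their log2 signals had a Pearson correlation of -0.11, given as a description over arrays that share their scaling. Among 556 bright genes that spanned at least 1 on the log2 scale, those most like Txnip were Clcn5 (r = 0.71), Hspa1b (0.70), Nasp (0.66), Hmga2 (0.65) and Bzw2 (0.64). None followed it closely. Hspa1b read 532 units after chronic and 52.5 after cyclic hypoxia, against 108 in normoxia, at the end, where Txnip was nearly level. The genes most like Txnrd1 were Cdc42se1 (r = 0.99), Smpd1 (0.97), Mcrip1 (0.93), Ckb (0.91) and Tmem222 (0.90). Srxn1 came 13th in that order (0.86). Cdc42se1 read 102 units after chronic and 206 after cyclic hypoxia, against 147 in normoxia, at the end, and 115 and 266 units, against 124, 1 h later.

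Neighbouring genes were counted by the same 2-fold measure, beside the shares of all genes given above (in cyclic hypoxia with reoxygenation, 3.57% higher and 10.6% lower). Of 13 measured genes (18 listed) with a thioredoxin fold or of the peroxiredoxin family, 1 was 2-fold lower in cyclic hypoxia with reoxygenation, the membrane-bound Tmx1 (334 against 754 units, -1.17), and 0 were 2-fold apart in the other 3 contrasts with normoxia. Txnrd3, the third reductase, known from mouse testis, was not selected by the rule for naming genes given below. It had log2 differences of -0.04 (chronic) and 0.52 (cyclic) at the end, and 0.08 and 0.70 1 h later. Prdx4, the peroxiredoxin of the endoplasmic reticulum, differed by -0.17 and -0.01 at the end, and by -0.39 and 0.00 1 h later. All probe sets of Prdx1 name a second gene as well, and it was left out.

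Of 11 measured genes of glutathione synthesis and glutaredoxins (14 listed), 1 was 2-fold higher at the end of cyclic hypoxia (all genes, 2.12%). With reoxygenation after cyclic hypoxia 2 were higher (all genes, 3.57%). Gclm, the modifier subunit of the first enzyme of glutathione synthesis, read 199 units after chronic and 287 after cyclic hypoxia, against 111 in normoxia, at the end, and 207 and 259 units, against 173, 1 h later. It was higher on all 4 hypoxic arrays, by 0.84 and 1.37 at the end and by 0.26 and 0.58 later, and the normoxia arrays differed by 0.63. The other genes, both dim and named after their values were seen, were Gss (35.1 against 14.0 units, 1.33) and the cystine carrier Slc7a11 (50.1 against 23.0 units, 1.12). Glutathione reductase, Gsr, differed by 0.21 to 0.38 from normoxia in the 4 contrasts.

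The list of NRF2, its regulators and some of its targets held 7 measured genes. Of these, 1 was 2-fold higher in each chronic contrast, against 2.52% (end) and 2.98% (1 h later) of all genes. In each cyclic contrast 2 were higher, against 2.12% and 3.57%. With reoxygenation after cyclic hypoxia 1 was lower, against 10.6% (Nqo1, -1.37, a dim NRF2 target named after its value was seen). Hmox1, heme oxygenase 1, was higher on all 4 hypoxic arrays, by 1.39 (chronic) and 1.42 (cyclic) at the end, and by 1.28 and 1.70 1 h later. Osgin1, a gene of the response to oxidants, also named after its values were seen, differed by 0.34 and 1.75 at the end, and by -0.14 and 1.37 later, so that like Srxn1 and Txnrd1 it stood higher on the cyclic arrays. Nfe2l2, which encodes NRF2, differed by -0.22 to 0.09 and Keap1, which marks NRF2 for degradation, by -0.01 to 0.45.

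The alpha-arrestins and the MondoA network, to which Txnip belongs by its known control, were read by 4 of 7 genes. Only Arrdc1 was 2-fold apart, at the end of cyclic hypoxia (28.8 against 58.5 units, -1.02), a dim gene named after its value was seen. Of all genes, 5.41% were 2-fold lower there. Arrdc4, a paralog of Txnip, was dim, with log2 differences of -0.78 (chronic) and -0.24 (cyclic) at the end, and -0.77 and -0.11 1 h later. Mlxip, which encodes MondoA, differed by 0.56 and 0.28 at the end, and by -0.14 and 0.21 later. Arrdc3, also listed, was not among the measured genes, so it has no value here.

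Of 8 measured clients of thioredoxin (9 listed), 1 was 2-fold lower, in cyclic hypoxia with reoxygenation. There 10.6% of all genes were 2-fold lower, so this count does not set the clients apart. The gene was the p53-induced subunit of ribonucleotide reductase Rrm2b (18.4 against 51.7 units, -1.49), dim and named after its value was seen. Of 8 measured genes of NADPH supply (9 listed) and of 3 superoxide and catalase enzymes, 0 were 2-fold apart in any of the 4 contrasts. The genes of NADPH supply lay between -0.68 and 0.69. Limma called 0 genes in all 7 of these lists and in each of the 8 contrasts. These counts and medians are descriptions, and the lists were drawn up with earlier results of these data known.

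**Figure D5:**
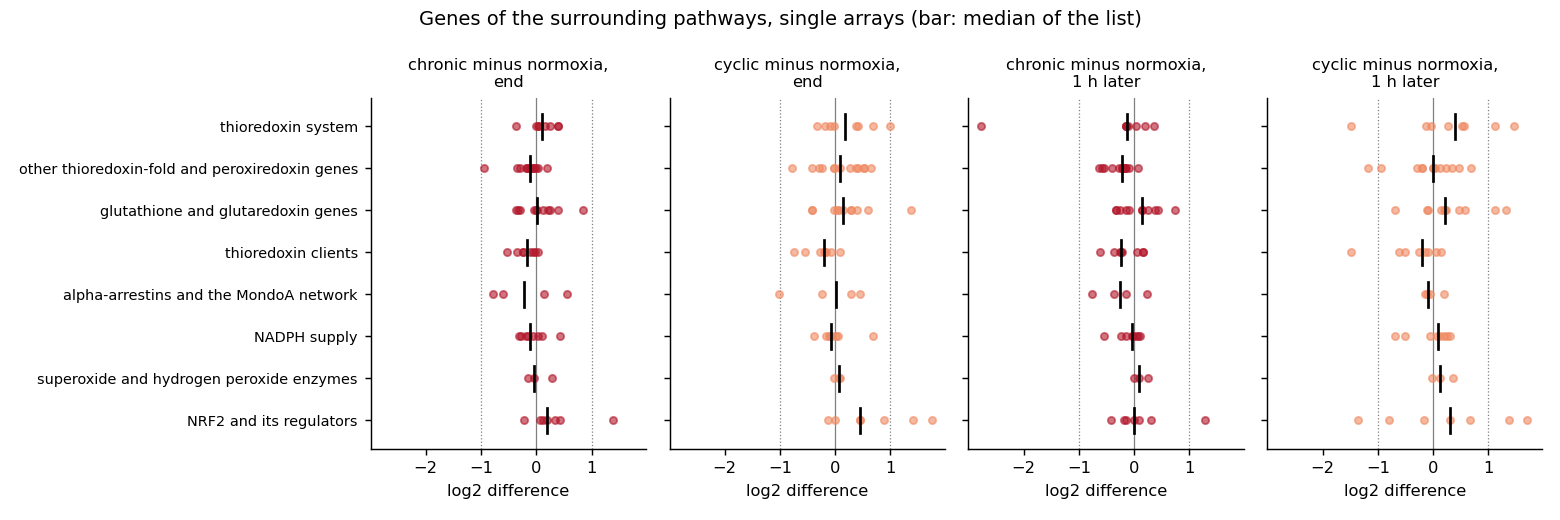
Log2 difference of each hypoxia array from its normoxia array for the thioredoxin system and 7 lists of neighbouring genes, 1 point per gene, with a bar at the median of the list and dotted lines at a 2-fold difference. The lowest point of the whole plot is Txnip in chronic hypoxia 1 h later, at -2.77, and the medians of the lists lie between -0.25 and 0.45.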

How the data were processed

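Biotin-labelled cRNA from 5 µg of total RNA was hybridised to 6 arrays, 1 per group, grouped by the sample titles. The authors deposited intensity signals for 22690 probe sets; per the submitters' processing notes GCOS was used, and its version and algorithm are not given in the sources used here. Values under 2.10 units (the 20th percentile) were set to that floor and turned to log2. The 64 control probe sets and those with a mean under 8.33 units (the 40th percentile) were left out, which left 13556. Entrez identifiers gave 20393 probe sets 1 gene, 691 several and 1606 none, and 20364 a current symbol. Each gene was represented by its brightest probe set.

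Tests used limma 3.58.1 in R 4.3.3 (moderated and two-sided, variance trended on intensity, p adjusted by Benjamini-Hochberg at 0.05), and the scripts were tested on simulated data. One fit held regime and collection, so that collections stood in for replicates; the other held hypoxia, collection and their interaction, so that regimes did. The small number of arrays limits precision, and dim signals lie near background. Named were all members, listed genes with a mean of at least 100 units that were 2-fold from normoxia on any hypoxia array (at most 4 a list), 8 genes of the pathway whatever their values, 2 hypoxia checks, and the 5 genes most like Txnip and most like Txnrd1. Members and lists were chosen with earlier results of these data known. Alternatives were quantile normalization, median centring, other floors, no filter, no trend, each array left out and the second brightest probe set.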

Additional observations from a re-analysis of the deposited data

Results flagged for a closer look

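The brightest probe set of Txnrd1 lay on opposite sides of normoxia in the 2 regimes. Both cyclic arrays were above normoxia, with log2 differences of 0.68 at the end and 1.12 when taken 1 h later, and both chronic arrays were below it, with -0.36 and -0.15. The fitted difference, cyclic minus chronic, was 1.15 and missed the threshold in limma (adjusted p = 0.127), while the chronic effect alone was -0.25 (95% interval -0.64 to 0.14). The dimmer probe sets did not keep the order for chronic hypoxia: the second was above normoxia at the end (0.33) and below it 1 h later (-0.55), and the third below it at the end (-1.21) and above it 1 h later (0.37).

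Prdx3 was above normoxia in both regimes at the end of hypoxia, by 0.25 (chronic) and 0.38 (cyclic), and below it in both 1 h later, by -0.14 and -0.13. The effect 1 h later minus that at the end was -0.45 and did not pass in limma (adjusted p = 0.9998).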

How the results depend on the processing

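Calls among the 8 genes came with median centring or with an array left out. Median centring gave 2 calls for cyclic hypoxia (Srxn1, 1.36, adjusted p = 0.00904, and Txnrd1, 1.03, adjusted p = 0.0179) and 1 for cyclic minus chronic hypoxia (Txnrd1, 1.33, adjusted p = 0.00869), where the deposited scaling gave 0. For cyclic minus chronic hypoxia it called 22 of all 13556 probe sets higher and 108 lower. With each array left out in turn, calls came for mean hypoxia, cyclic hypoxia, cyclic minus chronic hypoxia, hypoxia 1 h later and its difference from the end. Such fits leave 1 array in a regime, or 1 hypoxia array at a collection. Those with calls among the 8 genes also called other probe sets. The arrays whose loss brought calls were that after cyclic hypoxia (Srxn1, also Txnrd1), either normoxia array (Txnrd1, cyclic minus chronic), that after chronic hypoxia with reoxygenation (Srxn1, Txnip and Txnrd1) and that after cyclic hypoxia with reoxygenation (Txnip). Over all 13556 probe sets, the fit for hypoxia 1 h later that called 3 of the 8 genes called 191 higher and 1065 lower. Without a normoxia array the interaction fit gave no value. For Txnip these left-out fits spread from -1.93 to 0.11 for the cyclic effect (turned without the later normoxia array) and from -0.78 to 1.57 for cyclic minus chronic hypoxia (turned without that after chronic hypoxia with reoxygenation). Counts of 2-fold differences moved 3 times: to 1 (median centring, Srxn1) and 2 (second brightest probe set, Srxn1 and Txnrd1) at the end of cyclic hypoxia, and to 1 (second brightest probe set, Txnip) in its last hour. The other 51 settings left them within 1.5 times. Quantile normalization, other floors, no filter and no trend moved no count of calls among the 8 genes. Over all probe sets the 0 calls for cyclic hypoxia became 13 higher and 7 lower with quantile normalization, 118 and 200 with median centring, and 149 and 1119 without the array after cyclic hypoxia. Median centring moved the median of all genes by 0.11 at the end of cyclic hypoxia, by -0.14 and 0.15 in the reoxygenated chronic and cyclic arrays, by 0.28 between these and by 0.13 in the last hour of the cyclic regime. No paired analysis was possible because each group had 1 array and the labels give no replicate numbers.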
